A study of Sus scrofa domesticus with 4 samples.

Results

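Genes of lipolysis and fatty acid oxidation were examined in the anterior pituitary gland of pregnant and cyclic gilts, young female pigs. The set was ABHD5, PNPLA2, PNPLA4 and LIPE, which act on stored or membrane lipid, and ACADM, ACADL, ACADVL, CPT1A, HADHA and HADHB, which act on fatty acids in mitochondria. Members were found as the probes whose RefSeq accession belongs to 1 of these 10 genes. That gave 28 probes of the 43603 on the array, for 8 of the 10 genes and out of 3029 genes with a symbol. ACADVL and HADHB had 0 probes by this rule and were not analysed here. The 10 genes were chosen with their pregnant over cyclic ratios already known, so those ratios are given as a description, without a test.

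Triglyceride is held in lipid droplets and is cut to free fatty acids by a chain of lipases. Adipose triglyceride lipase, encoded by PNPLA2, makes the first cut and is activated by the protein that ABHD5 encodes, and hormone-sensitive lipase, encoded by LIPE, makes the next. Fatty acids then enter mitochondria through the carnitine shuttle, whose gate is the carnitine palmitoyltransferase of CPT1A, and are shortened in repeated cycles by acyl-CoA dehydrogenases of different chain length and by the trifunctional protein, whose subunits come from HADHA and HADHB. In the RefSeq annotation HADHA and HADHB are neighbours on the same chromosome.

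The pregnant group was 4 gilts on days 15 to 16 of pregnancy after natural mating, with conceptuses found at slaughter. The cyclic group was 4 gilts on days 15 to 16 of the estrous cycle, counted from the onset of estrus and checked by ovarian morphology. All 8 were mature Large White x Polish Landrace animals of 90 to 110 kg from a private farm, and no allele or drug differed between the groups. Each of 4 two-colour arrays carried 1 pregnant and 1 cyclic animal, so each array is 1 independent pair. Ratios are log2 of pregnant over cyclic, written as a mean ± SD over the 4 arrays.

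The direction of every ratio rests on the dye fields of the samples, which put the pregnant animal in Cy3 on arrays 1 and 3 and in Cy5 on arrays 2 and 4. The labelling text names Cy3 for all pregnant animals. Under that text arrays 2 and 4 would turn, ABHD5 would stand at 0.042 and ACADM at 0.14, and PNPLA2, PNPLA4, LIPE, ACADL and HADHA would change sign, to 0.34, -0.28, -0.20, -0.063 and 0.42. Everything that follows takes the dye fields.

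Between 50.5% and 60.5% of the probes were well above background in the pregnant channels and between 52.6% and 66.6% in the cyclic channels. The pituitary hormone and lineage genes used as tissue markers were detected, 8 of 8. The log2 of their summed intensity was 19.74 to 20.38 in pregnant and 20.04 to 20.68 in cyclic animals, with PRL the brightest. Their mean ratios were above 0 for 2 and below 0 for 6. Single genes differed far more within an array than the sum. TSHB stood at -1.67, 4.48, -3.02 and -4.20 on arrays 1 to 4. On array 3 GH1 stood at -2.50 and FSHB at 2.53. Across features, the ratios of the arrays correlated between -0.24, for arrays 2 and 3, and 0.32, for arrays 2 and 4. In a gland made of several cell types, more cells of a type and more RNA per cell cannot be told apart. Of 6 adipocyte markers 3 were measurable, and ADIPOQ, PLIN1 and CIDEC were above background in 0 of 8 channels. The summed level of the other 3 markers, FABP4, LEP and LPL, was 10.3 to 12.1 in pregnant and 10.9 to 11.8 in cyclic animals. Their mean ratios lay between -0.13 and 0.070. FABP4, by far the brightest of them, ran at -0.68, 0.92, -0.91 and 0.14 on arrays 1 to 4. LPL was above background in 2 pregnant and 2 cyclic channels. Summed levels overlapped likewise for the 4 macrophage markers, with 12.4 to 13.3 in pregnant and 12.6 to 13.4 in cyclic animals, and for the 2 measurable posterior and intermediate lobe genes, with 11.8 to 13.2 and 12.3 to 13.3. The 4 endothelial and stromal genes lay at 13.220 to 13.605 in pregnant and 13.564 to 14.041 in cyclic animals, a narrow overlap. The part of these genes in the results was not tested.

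All 8 genes had at least 1 probe above the filter on dim spots, and 25 of the 28 probes passed it. The 3 others were probes of CPT1A. With the brightest probe standing for a gene, 5 of 8 genes had a mean ratio above 0, where 47.2% of all 22276 features did, and the median of the 8 was 0.13, against -0.011 for all features. By array the median of the 8 was 0.35, 0.44, -0.20 and 0.0069 on arrays 1 to 4, with 6, 6, 3 and 4 genes above 0. Genes above 0 on all 4 arrays numbered 3 of 8, beside 6.69% of all features, and genes below 0 on all 4 numbered 1 of 8, beside 7.49%. These shares stand beside the counts only, because the ratios chose the genes.

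**Figure D1:**
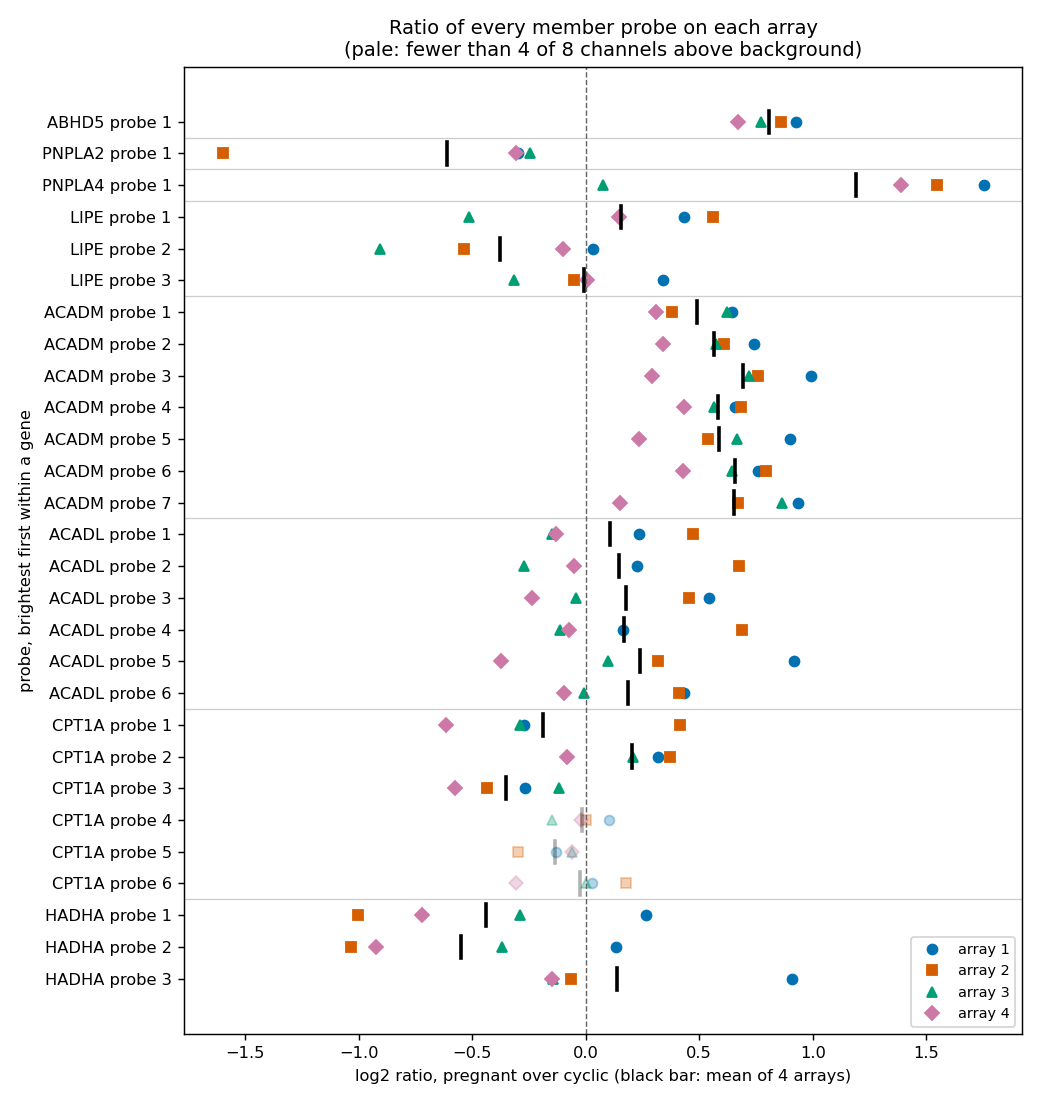
Log2 ratio of pregnant over cyclic for each of the 28 probes on each of the 4 arrays, with a black bar at the mean of the arrays, grouped by gene with the brightest probe first. The 7 ACADM probes lie above 0 on every array, while LIPE, CPT1A and HADHA have probes on both sides of 0.

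ABHD5, the activator of adipose triglyceride lipase, had the narrowest ratios of the lipolysis genes. Its 1 probe stood at 0.93, 0.86, 0.77 and 0.67 on arrays 1 to 4. The mean was 0.81 ± 0.11 (SD, n = 4), a 1.75-fold higher level in pregnant animals. Normalized log2 intensity was 9.90, 9.92, 10.00 and 9.88 in the pregnant animals and 8.98, 9.06, 9.23 and 9.21 in the cyclic animals. The lowest pregnant animal was 0.65 above the highest cyclic animal, so the groups did not overlap, which was the case in this direction for 1.05% of all features. The pregnant animals spanned 0.12 and the cyclic animals 0.25.

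PNPLA2, the lipase that ABHD5 activates, went the other way. Its 1 probe stood at -0.30, -1.60, -0.25 and -0.31, with a mean of -0.61 ± 0.66. Array 2 stood apart on both sides, the pregnant animal being the lowest of its group and the cyclic animal the highest of its group. Intensities were 8.31, 7.72, 8.35 and 8.30 in pregnant and 8.61, 9.32, 8.60 and 8.60 in cyclic animals. The groups did not overlap, with a gap of 0.25, as for 0.979% of all features in this direction. The mean of the other 3 arrays without array 2 was -0.28.

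Within an array, ABHD5 exceeded PNPLA2 in its ratio on each of the 4 arrays, by 1.22, 2.46, 1.02 and 0.98. That order follows from the signs of the 2 genes given above and is no separate result. The mean difference was 1.42 ± 0.70, and the largest came from array 2, where PNPLA2 was apart.

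PNPLA4, a lipid hydrolase of the same patatin-like family that also acts on retinyl esters, had the largest ratio of the 8 genes and a wide spread. Its 1 probe stood at 1.76, 1.55, 0.076 and 1.39, a mean of 1.19 ± 0.76 and 2.28-fold. Intensities in the pregnant animals lay close together, at 8.28, 8.46, 8.49 and 8.71. Those in the cyclic animals ran over 1.89 log2 units, at 6.53, 6.91, 8.42 and 7.32, so the low ratio of array 3 came with a cyclic animal at the level of the pregnant ones. The groups overlapped through that animal alone. The mean of the remaining arrays was 1.56 without array 3, and background parameters from all spots gave 0.32 over the 4 arrays.

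LIPE, hormone-sensitive lipase, gave no single direction. Its brightest probe stood at 0.43, 0.56, -0.51 and 0.15, a mean of 0.16 ± 0.48. The other probes had means of -0.38 ± 0.43 and -0.0057 ± 0.27, so 1 of 3 probes was above 0. All 3 were lowest on array 3. Pregnant and cyclic intensities overlapped for every LIPE probe, and the mean turned to -0.075 with the probes averaged.

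**Figure D2:**
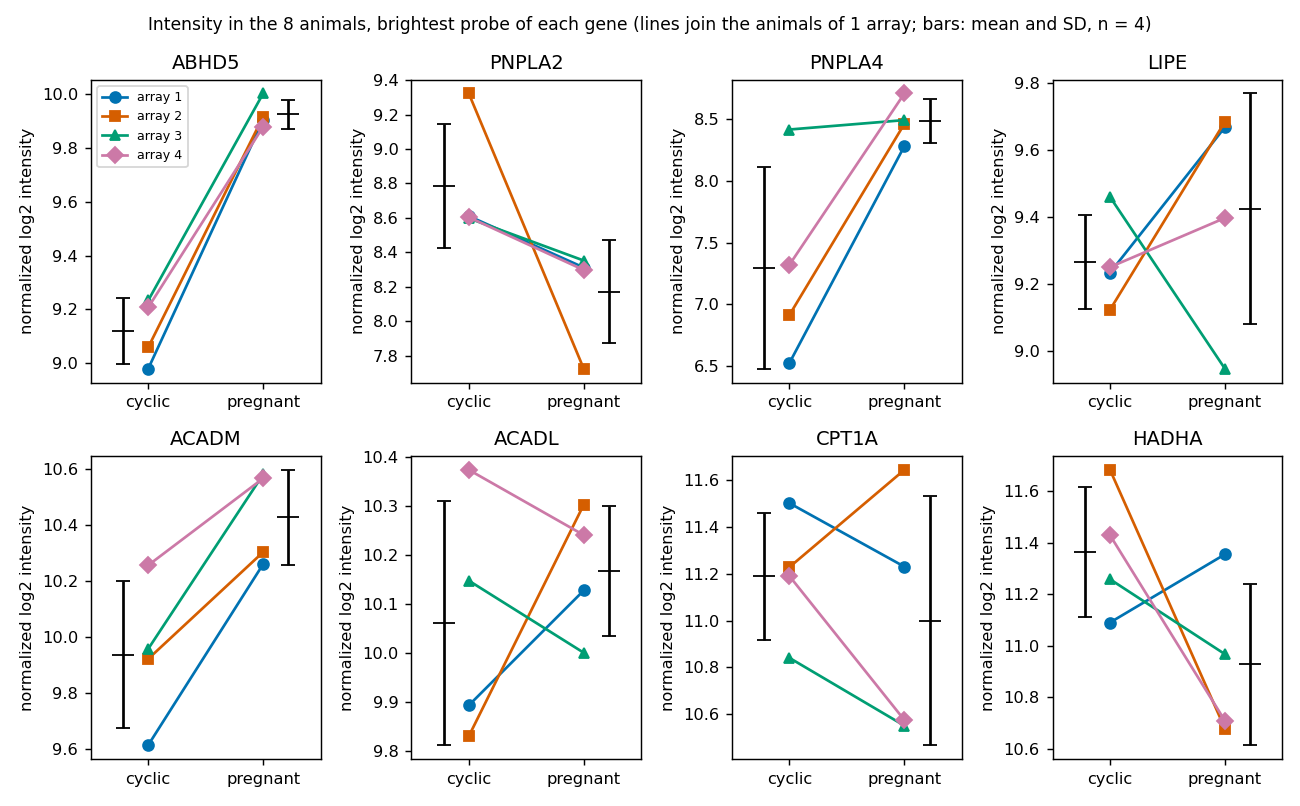
Normalized log2 intensity of the brightest probe of each of the 8 genes in the 4 cyclic and the 4 pregnant animals, with a line joining the animals of 1 array and bars for the mean and SD of each group. ABHD5, PNPLA2 and ACADM are the genes without overlap, and PNPLA4 overlaps through the cyclic animal of array 3. Of all features, 1.05% were higher and 0.979% lower in pregnant animals without overlap.

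Among the mitochondrial enzymes, ACADM, the medium-chain acyl-CoA dehydrogenase, was the gene with the most probes and the most even readings. All 7 probes match 1 transcript and so are repeated readings of the same gene, not replicates. Each was above 0 on each of the 4 arrays, and their means lay between 0.49 and 0.69. The brightest stood at 0.65, 0.38, 0.62 and 0.31, a mean of 0.49 ± 0.17 and 1.40-fold. Array 4 gave the lowest ratio for all 7 probes.

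The intensities of the brightest ACADM probe were 10.26, 10.30, 10.58 and 10.57 in pregnant and 9.61, 9.92, 9.96 and 10.26 in cyclic animals. The highest cyclic animal, of array 4, thus came within 0.0036 of the lowest pregnant animal, of array 1. For the 7 probes the gap between the groups was 0.0036 to 0.29, and the groups overlapped for 0 of them. Of all features, 1.05% had no overlap in this direction. The cyclic animal of array 1 was the lowest and that of array 4 the highest of its group for 7 of 7 probes. Over all features these shares were 34.4% and 25.3%. The range over the cyclic animals, 0.54 to 0.80 by probe, was wider than that over the pregnant animals, 0.18 to 0.42.

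ACADL, the long-chain acyl-CoA dehydrogenase of the same family, was split by array rather than by group. The brightest of its 6 probes stood at 0.23, 0.47, -0.15 and -0.13, a mean of 0.11 ± 0.30. The 6 means lay between 0.11 and 0.24, all above 0, but 0 of 6 probes had 1 sign on all arrays. By array the median of its probes was 0.33, 0.46, -0.080 and -0.11, so arrays 1 and 2 were above 0 and arrays 3 and 4 below. The pregnant animals were at 10.13, 10.30, 10.00 and 10.24 and the cyclic animals at 9.89, 9.83, 10.15 and 10.37 for the brightest probe, and the groups overlapped for all 6. The cyclic animal of array 4 was again the highest of its group, for 6 of 6 probes. The mean of the other 3 arrays without array 2 was -0.015.

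Cyclic animals varied more than pregnant animals for 20 of the 25 measurable probes, among them 7 of 7 of ACADM and 6 of 6 of ACADL. Over all features 51.0% varied more in the cyclic group. The cyclic animal of array 4 was the highest of its group for 13 of the 25 probes, all of them of ACADM and ACADL, against 25.3% of features. The 25 probes come from 8 genes, so these counts describe few independent readings and were not tested.

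CPT1A, which commits long-chain fatty acids to the mitochondrion, had probes that disagreed. Of its 6 probes, 3 were measurable. The brightest, at a mean log2 intensity of 11.1, stood at -0.27, 0.41, -0.29 and -0.61, a mean of -0.19 ± 0.43. The next gave 0.20 ± 0.20 with 3 of 4 arrays above 0. The dimmest of the 3 gave -0.35 ± 0.20 with 0 of 4 above 0 and no overlap between the groups, the gap being 0.10. Of all features, 0.979% had no overlap in this direction. Without array 4 the plain mean of the brightest probe was -0.048, and with the dye orientations weighted equally it was 0.068. The remaining 3 probes were above background in 2, 1 and 0 of 8 channels and are not read here.

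HADHA, the alpha subunit of the trifunctional protein, was lower in pregnant animals by its brighter probes. The brightest stood at 0.26, -1.004, -0.29 and -0.72, a mean of -0.44 ± 0.55, and the next at 0.13, -1.04, -0.37 and -0.92, a mean of -0.55 ± 0.54. Both were above 0 on array 1 and below 0 on the other 3. The third probe, the dimmest, stood at 0.91, -0.066, -0.14 and -0.15, a mean of 0.14 ± 0.52. Intensities of the brightest probe were 11.36, 10.68, 10.97 and 10.71 in pregnant and 11.09, 11.68, 11.26 and 11.43 in cyclic animals, with overlap through array 1 alone. The mean of the other 3 arrays was -0.67 without array 1 and -0.25 without array 2. Green exceeded red by a mean of 0.42 for this probe, since the arrays with pregnant RNA in Cy5 had the lower ratios. For ABHD5 the mean of red over green was -0.042 and for the brightest ACADM probe -0.14, both smaller than their ratios. It was -0.34 for PNPLA2, beside a ratio of -0.61, and 0.28 for PNPLA4, beside a ratio of 1.19.

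By the brightest probes, ACADM exceeded HADHA in its ratio on 4 of 4 arrays, by 0.38, 1.39, 0.91 and 1.03, and exceeded ACADL on 3 of 4, by 0.41, -0.092, 0.77 and 0.44. Except on array 1, the order of ACADM and HADHA follows from the signs given above and is no separate result. The same holds for ACADL on arrays 3 and 4. On array 1 the dimmest HADHA probe, at 0.91, was above the brightest ACADM probe, at 0.65.

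**Figure D3:**
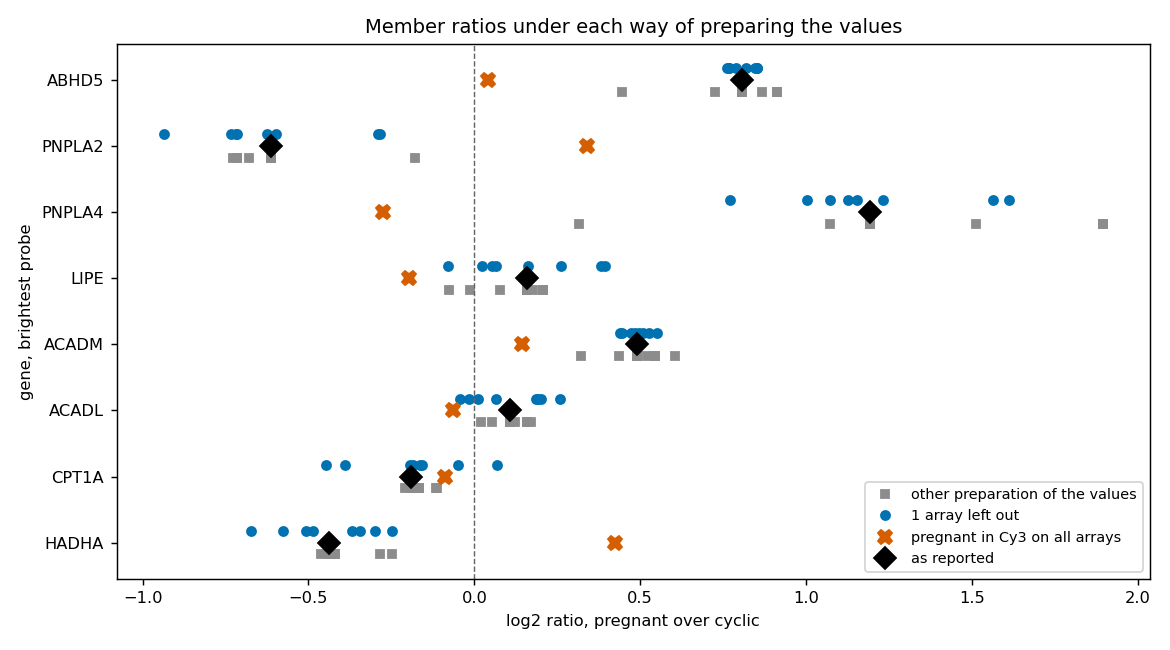
Log2 ratio of pregnant over cyclic for the 8 genes as reported (black), with 1 array left out (blue, as the plain mean of 3 arrays and as the mean balanced over dyes), under other ways of preparing the values (grey) and with pregnant RNA taken as Cy3 on all arrays (orange). ABHD5 stays between 0.45 and 0.91 and ACADM between 0.32 and 0.60 except for the orange points, at 0.042 and 0.14.

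Other genes of lipid metabolism were read from 7 lists sorted by function. The lists cover fatty acid synthesis as well as breakdown, and some enzymes of amino acid breakdown. They named 149 genes, of which 82 had a probe by the same matching and 74 were measurable. These genes were tested in the limma fit over all features. At an unadjusted p under 0.05 were 7 of 74, or 9.46%, with 2 higher and 5 lower in pregnant animals, where 7.67% of all features were at that level, 3.23% higher and 4.44% lower (719 and 990 features, against 262 and 1084 under median centring in place of loess). The share of pathway genes was near that background. With limma's Benjamini-Hochberg adjustment 0 of 74 passed, the smallest adjusted p being 0.624. Over the whole array 0 of 22276 features passed (percent called 0). With pregnant RNA in Cy3 on all arrays 5 pathway genes were at an unadjusted p under 0.05, 2 higher and 3 lower, and 0 of the 7 genes kept that call; FABP5 stood at 0.28, OXCT1 at -0.40 and PRKAB2 at 0.14. With background parameters from all spots the count was also 5, and FABP5, CPT2, PLIN3, ECI2 and IVD lost the call, at 0.35, -0.050, -0.15, -0.19 and -0.064. In the fit as reported, the median ratio of the 74 genes was 0.023. The lists are described by counts and medians, and standard errors below are those of the fit.

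In fatty acid uptake, activation and the carnitine shuttle, 11 of 16 genes were above 0, with a median of 0.12, and 1 was higher and 1 lower at that p. FABP5, a cytosolic fatty acid carrier, stood at 0.43 ± 0.16 (SE), with 1.07 on array 3 and -0.070 on array 2, and its 3 other probes shared its sign. CPT2, the inner membrane partner of CPT1A, stood at -0.25 ± 0.10, between -0.40 and -0.043 and so below 0 on 4 of 4 arrays. CROT, which moves peroxisomal products to carnitine, stood at 0.32 ± 0.13, but its arrays ran from -0.18 to 1.11. ACSL4, an acyl-CoA synthetase that favours arachidonic acid, stood at 0.27 ± 0.11 and was above 0 on 4 of 4 arrays. The brightest gene of the list was DBI, the acyl-CoA binding protein, at 0.035 ± 0.13.

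Of the other mitochondrial enzymes 8 of 10 were above 0, with a median of 0.069, yet the 2 at an unadjusted p under 0.05 were lower. ECI2, an isomerase for unsaturated fatty acids, stood at -0.45 ± 0.11, with -0.24, -0.71, -0.46 and -0.38 on arrays 1 to 4. IVD, the dehydrogenase of leucine rather than fatty acid breakdown, stood at -0.31 ± 0.12, with -0.81 on array 2. ACAD8, of valine breakdown, stood at 0.38 ± 0.24, above 0 on arrays 3 and 4 only. ETFB, a subunit of the flavoprotein that takes electrons from the acyl-CoA dehydrogenases, stood at 0.10 ± 0.13, and ECHS1, the short-chain enoyl-CoA hydratase and the brightest of the list, at 0.021 ± 0.13.

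All 6 measurable peroxisomal genes had a ratio above 0, from 0.019 to 0.30 with a median of 0.14, and 0 of 6 were at an unadjusted p under 0.05 by limma. SCP2, a thiolase and sterol carrier, stood at 0.30 ± 0.17, with array 4 at -0.29, and CAT, catalase, at 0.13 ± 0.12. By array the median of the list was 0.42, 0.21, 0.046 and 0.036. The sign of CAT turned with background parameters from all spots, at -0.013, and with pregnant RNA in Cy3 throughout, at -0.062.

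Lipid droplet proteins and other lipases were evenly divided, 7 above and 7 below 0 with a median of 0.0026, and 1 of 14 was at an unadjusted p under 0.05. That gene was PLIN3, a droplet coat protein, at -0.39 ± 0.13 and below 0 on 4 of 4 arrays. BSCL2, which encodes seipin of droplet assembly, stood at -0.50 ± 0.24, with -1.16 on array 2 and 0.24 on array 4. PLIN5, a coat protein that binds ABHD5 and PNPLA2, stood at -0.19 ± 0.10, above 0 on arrays 1 and 3 and below on arrays 2 and 4, in the order of the dyes. LIPA, the lysosomal acid lipase, stood at -0.14 ± 0.19.

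Among 19 regulators 7 were above and 12 below 0, with a median of -0.045. PRKAB2, a beta subunit of AMP-activated kinase, was the 1 gene at an unadjusted p under 0.05, at 0.31 ± 0.10 and above 0 on 4 of 4 arrays, from 0.060 to 0.47. RXRB, a partner of the PPAR receptors, stood at -0.32 ± 0.14 and UCP2, a mitochondrial carrier, at -0.24 ± 0.11. UCP2 also followed the dye, with 0.33, -1.05, 0.62 and -0.87 on arrays 1 to 4. PRKAR1A, a regulatory subunit of protein kinase A, the kinase that switches on lipolysis, stood at 0.11 ± 0.11 as the brightest of the list.

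In ketone body metabolism OXCT1, the enzyme by which tissues use ketone bodies, stood at -0.78 ± 0.20 and was below 0 on 4 of 4 arrays, at -1.71, -0.62, -0.64 and -0.15. Without array 1 it stood at -0.51 and without array 3 at -1.05. In fatty acid synthesis, the opposite pathway, 5 of 7 genes were below 0, with a median of -0.20 and 0 of 7 at an unadjusted p under 0.05 by limma. SREBF1, its transcription factor, stood at -0.20 ± 0.11 and FASN, fatty acid synthase, at -0.33 ± 0.19, with -1.14 on array 2.

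**Figure D4:**
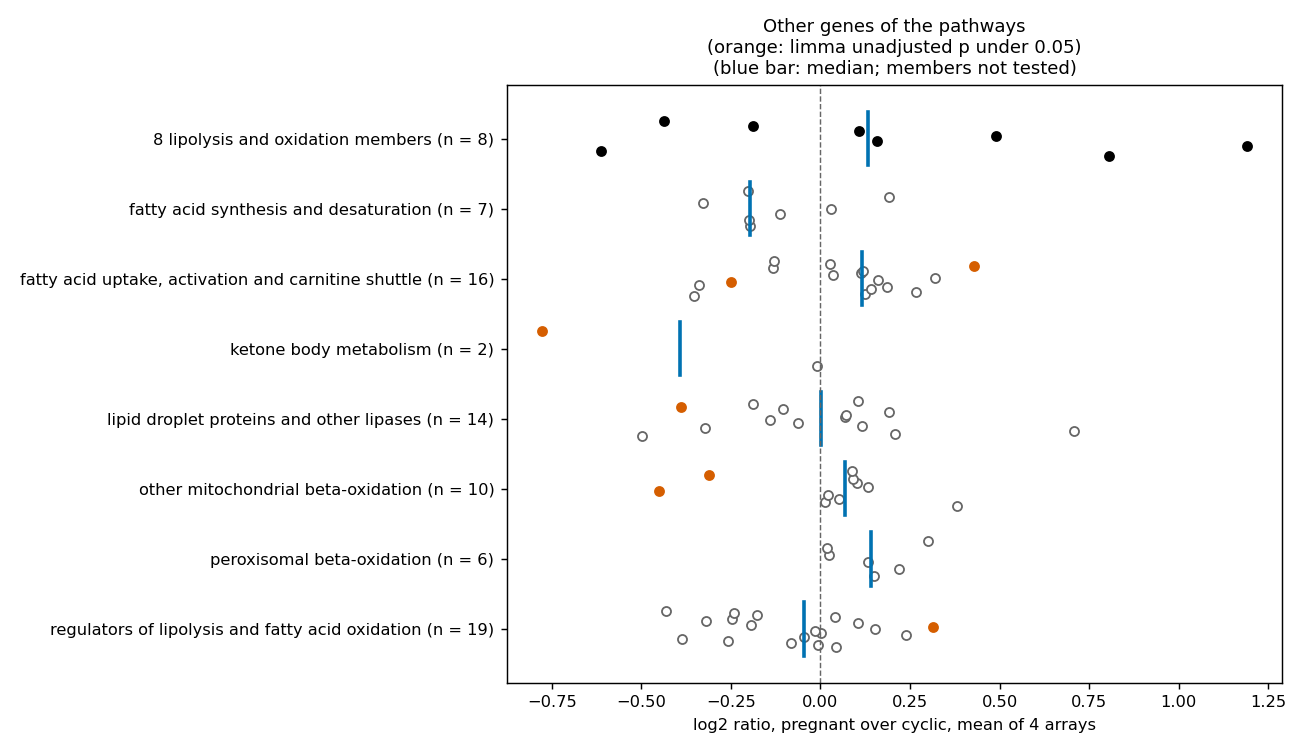
Mean log2 ratio of pregnant over cyclic over 4 arrays for the 8 lipolysis and oxidation genes (black) and for each measurable gene of the 7 lists, with orange marking a limma unadjusted p under 0.05 and a blue bar at the median. The 7 orange genes are spread over 5 lists, with 2 above and 5 below 0.

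Calls among these 7 genes were sensitive to single arrays. With 1 array left out in turn, the ratios of the fit with its dye term stayed on their side of 0, at 0.25 to 0.61 for FABP5, -0.28 to -0.22 for CPT2, -0.53 to -0.36 for ECI2, -0.43 to -0.19 for IVD, -0.49 to -0.28 for PLIN3, 0.26 to 0.37 for PRKAB2 and -1.05 to -0.51 for OXCT1. All of them but FABP5 had 1 sign on all 4 arrays, so for these the side was fixed in advance. The number of pathway genes at that p was 4 without array 1, 7 without array 2, 4 without array 3 and 10 without array 4. These numbers include genes outside the 7. Each of the 7 lost the call in at least 1 of these fits. CPT2 lost it in all 4, OXCT1 without array 2 and ECI2 without array 3. The fit rests on 4 arrays, and their number limits the precision.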

How the data were processed

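Labelled RNA was hybridised to 4 two-colour Agilent porcine arrays, 1 pregnant and 1 cyclic gilt on each, and read out by Feature Extraction (version 10.7.3.1). Per the file headers, each array's deposited output gives median spot and local background intensities. It also gives processed intensities, background-subtracted and dye-normalized, with their log10 ratio, likewise per the file headers. The authors' deposited value table holds log2 ratios, equal within 0.001 to the processed red over green ratio turned to pregnant over cyclic for 43553 of 43553 probes spotted once on each array. Its column medians were 0.150, -0.0102, 0.0650 and -0.0726, and the labels do not state how it was made.

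In R 4.3.3 with limma 3.58.1, median intensities were corrected by normexp (offset 50) and normalized by loess (span 0.3, control spots at weight 0). The normexp parameters were estimated without spots marked as outliers in the spot or its background, 377 to 3480 per channel of an array. Spots marked as outliers in the spot itself (26 to 63 per array) were left out of the ratios, and 0 spots were saturated. A probe was kept when at least 4 of its 8 channels were well above background and at least 3 arrays measured it. Probes were named by RefSeq accession (Sscrofa11.1 annotation), for 6700 of 43603. The brightest probe stood for a gene, and unnamed probes for themselves. Intensities per animal come from the same values after Aquantile scaling between arrays, and are open to dye bias between animals. Ratios were fitted with a gene-specific dye effect by lmFit and eBayes, with Benjamini-Hochberg adjustment. The fit was checked on simulated data. Of 100 genes changed by 1 log2 unit it recovered 94% by unadjusted p, and of 100 changed by 2 units 99%. Smaller changes, such as those of the named pathway genes, were not simulated.

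The members and lists were chosen with earlier results of these data known. From each pathway list the text names genes at an unadjusted p under 0.05, the next 2 by p and the brightest; 2 of these genes are not reported here. Arrays left out, other backgrounds, normalizations, filters, dye and channel models and the other dye orientation were tried. No sequences or coordinates are given.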

Additional observations from a re-analysis of the deposited data

Results flagged for a closer look

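Of 100 sets of 4 values examined, for the 25 measurable probes and the named pathway genes, 6 had 1 value far from the other 3, where chance gives about 1 in 20. The PNPLA2 probe accounted for 3 of them, with array 2 at -1.60 in the ratio, at 7.72 in the pregnant intensity and at 9.32 in the cyclic intensity. The dimmest HADHA probe had array 1 apart at 0.91. The dimmest ACADM probe had the pregnant animal of array 3 apart at 9.30 in intensity, and the second CPT1A probe had the cyclic animal of array 2 apart at 7.72.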

How the results depend on the processing

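Of 17 alternatives, 14 bear on the member ratios. Across these the number of genes above 0 was 4 to 6 of 8 and the median ratio -0.034 to 0.30. With pregnant RNA in Cy3 on all arrays PNPLA2 was at 0.34, PNPLA4 at -0.28, LIPE at -0.20, ACADL at -0.063 and HADHA at 0.42, and of the pathway genes FASN at 0.27, CPT2 at 0.15, CROT at -0.49, DBI at -0.095, PLIN3 at 0.057, PLIN5 at 0.32, LIPA at 0.037, ECI2 at 0.096, IVD at 0.25, ACAD8 at -0.052, CAT at -0.062, RXRB at 0.29, UCP2 at 0.72 and PRKAR1A at -0.21. Background parameters from all spots turned LIPE to -0.014, PLIN5 to 0.038, CAT to -0.013 and UCP2 to 0.044, moved CROT to 0.016, and gave 0.45 for ABHD5, 0.32 for PNPLA4, 0.32 for ACADM and -0.18 for PNPLA2. Averaging probes turned LIPE to -0.075. Leaving out arrays, with the 2 dye orientations weighted equally as in the fit, gave -0.079 to 0.39 for LIPE, -0.045 to 0.26 for ACADL, -0.45 to 0.068 for CPT1A, -0.36 to 0.076 for LIPA, -0.090 to 0.16 for DBI, -0.028 to 0.23 for ETFB and -0.076 to 0.12 for ECHS1. The plain means of the remaining 3 arrays, chosen after seeing the data, were 0.023 to 0.38 for LIPE, -0.015 to 0.19 for ACADL, -0.39 to -0.048 for CPT1A, -0.73 to -0.28 for PNPLA2 (-0.94 to -0.29 with equal weights) and 1.003 to 1.56 for PNPLA4 (0.77 to 1.61), so that of these 5 genes ACADL alone changed sign. The cause was not tested.

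The 1709 features at an unadjusted p under 0.05 became 2759 without a filter on dim probes, which tests more features, 698 with no replicate block (the 8 channels as separate samples), 3051 with separate channels and a within-array correlation of 0.634, and 765 to 2776 with an array left out. The 7 pathway genes became 11, 5, 14 and 4 to 10 under the same settings, and 4 without a dye term. Of the 1709, 42.1% were higher, with 719 higher and 990 lower, against 262 and 1084 under median centring, 452 and 317 without array 2 and 845 and 1931 without array 4. At the adjusted threshold limma called 3 features with a smaller offset of 10, 4 with separate channels, 1 without the block and 12 without array 1, and 0 otherwise.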
